A study of Mus musculus with 5 samples.

Results

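Genes of the splicing machinery were examined in beta cells, the insulin-producing cells of the pancreatic islet, in which the cell cycle inhibitor p16INK4a had been switched on. The members are all genes of the deposited table whose symbol begins with Srsf, Hnrnp, Sf3a, Sf3b or Snrp, which gave 52 of the 23951 genes listed. They comprise 11 Srsf, 20 Hnrnp, 3 Sf3a, 6 Sf3b and 12 Snrp genes, and all 52 were among the 13264 genes that the authors tested. The p16 group held 3 samples from Ins-rtTA/tet-GFP/tet-p16ink4a animals, and the GFP group held 2 samples from Ins-rtTA/tet-GFP mice. Both groups thus carried the Ins-rtTA driver, in which the insulin promoter limits the tetracycline-responsive activator to insulin-expressing cells, and both expressed green fluorescent protein. All mice were given tetracycline over 10 days, and cells positive for green fluorescence were then isolated from dispersed islets for RNA sequencing. The sources used here give no age. The question put to these data is whether transcripts of the splicing machinery differ between beta cells with and without induced p16INK4a.

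Before translation, introns are removed from nuclear transcripts by the spliceosome, which is built from small nuclear ribonucleoproteins (snRNPs) and many accessory proteins. SR proteins, encoded by the Srsf genes, bind exonic enhancers and favour inclusion of an exon, while hnRNP proteins coat nascent RNA and often oppose it, so that the balance between them shapes alternative splicing. The Sm proteins and other snRNP proteins, encoded by the Snrp genes, form the core of the spliceosomal particles, and the SF3A and SF3B complexes let the U2 snRNP hold the branch point. Many SR and hnRNP genes control their own messages through alternative exons that send the transcript to decay. Values per gene, as here, do not separate such forms.

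The values are the authors' FPKM (fragments scaled by transcript length and library size), with 1 value per group and gene, so levels can be compared between genes per length. No values per sample were used, so library depth is unknown and no spread among samples can be given. Whether a gene differed was read from the q-value of the authors' deposited table, at a threshold of 0.05. The labels do not tie each sample to its own mouse, so the p-values may in part measure technical spread. Cdkn2a, which encodes p16INK4a, stood at 34.6 FPKM in the p16 group and 0.657 FPKM in the GFP group (q = 0.00245 in the authors' deposited table). Of the beta cell markers Ins1, Ins2 and Iapp carried no estimate in either group, being listed at 0 for too many fragments. Slc30a8, the zinc transporter of insulin granules, stood at 405.4 FPKM in the p16 group and 648.1 FPKM in the GFP group (q = 0.146 in the authors' deposited table). Slc2a2, the glucose transporter of mouse beta cells, fell to 205.2 FPKM in the p16 group, against 401.7 FPKM in the GFP group (q = 0.0242 in the authors' deposited table). Some markers of other cells differed between the groups too. The 5 delta and PP cell markers summed to 3998 FPKM in the p16 group and 1866 FPKM in the GFP group, and the authors' deposited table called 4 of them higher. The 6 duct markers summed to 667.5 FPKM in the p16 group and 294.6 FPKM in the GFP group, and the authors' deposited table called 3 higher and 1 lower. Most of the difference between these sums lay in Cldn4, at 486.5 FPKM in the p16 group and 143.3 FPKM in the GFP group. Krt19, the duct marker called lower, stood at 1.79 FPKM in the p16 group and 5.75 FPKM in the GFP group. The 6 alpha cell markers summed to 2781 FPKM in the p16 group and 2159 FPKM in the GFP group, with 1 called higher in the authors' deposited table. The 6 stellate and fibroblast markers reached only 4.85 FPKM in the p16 group and 0.466 FPKM in the GFP group, and the 2 that were tested were called higher in the authors' deposited table. Markers of acinar, endothelial and white blood cells were low. In the p16 group the 7 acinar markers summed to 19.0 FPKM, the 5 endothelial markers to 0.552 FPKM and the 5 leukocyte markers to 3.59 FPKM. In the GFP group they summed to 18.0, 0.567 and 2.20 FPKM. All 7 acinar markers were tested by the authors, but only 2 of the 5 leukocyte and 0 of the 5 endothelial markers. Of those tested, only the leukocyte marker Cd68 was called (q = 0.0498 in the authors' deposited table). It stood at 1.95 FPKM in the p16 group and 0.229 FPKM in the GFP group. The part of these cells in the results on splicing genes was not tested, and in sorted bulk cells fewer cells of a type and less RNA per cell cannot be told apart.

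No splicing factor gene passed the test. In the authors' deposited table, made with Cuffdiff, 0 of 52 members had a q-value below 0.05, while 5.42% of all tested genes did (4.32% higher and 1.1% lower in the p16 group). At a q below 0.01 there were 0 members and 2.78% of tested genes, and at a q below 0.1 there was 1 member, Sf3b6, and 7.73% of tested genes in the authors' deposited table. At an unadjusted p below 0.05, 7 members were lower and 1 was higher in the authors' deposited table, where 7.01% of tested genes were lower and 10.2% higher at that level. Most members nonetheless had a modestly lower value in the p16 group. The lower value was in the p16 group for 37 of 52 members, against 51.6% of all tested genes, and the median log2 ratio of p16 over GFP FPKM was -0.24, against -0.02 over all tested genes. Among members the ratios ran from -0.81 to 0.74 on the log2 scale, with an interquartile range of -0.45 to 0.10. Over all tested genes the interquartile range was -0.32 to 0.32. For tested genes at a mean of 20 to 100 FPKM it was -0.33 to 0.17, and at 100 FPKM or more -0.38 to 0.07. Together the 52 genes summed to 3327 FPKM in the p16 group and 3989 FPKM in the GFP group.

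**Figure D1:**
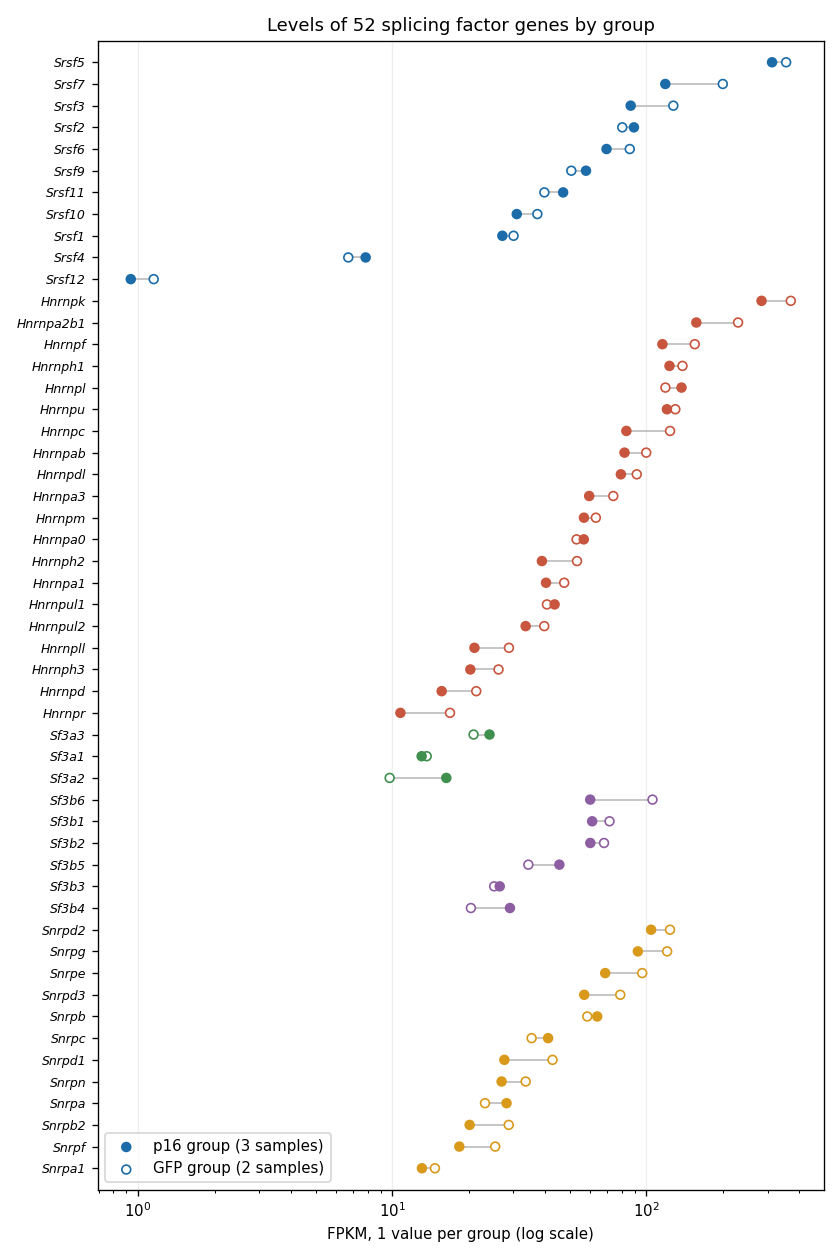
Level of each of the 52 members in FPKM on a log axis, with filled points for the p16 group and open points for the GFP group, 1 value per group, ordered within each family by mean level. Srsf5 and Hnrnpk are the most abundant, and most open points lie to the right of the filled ones.

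Most members were abundant, with 12 members at a mean of 100 FPKM or more, 33 between 20 and 100 FPKM, 6 between 5 and 20 FPKM and 1 below that. Among all tested genes with a mean of 20 to 100 FPKM, 4.36% were called in the authors' deposited table, and the smallest absolute log2 ratio of a called gene was 0.82, or 1.77-fold. For tested genes at 100 FPKM or more the share was 4.5% and the smallest such log2 ratio was 0.83, and between 5 and 20 FPKM they were 5.11% and 0.81. The share of genes with the lower value in the p16 group also grew with level. At 20 to 100 FPKM it was 59.1% of tested genes, beside 21 of 33 members, and at 100 FPKM or more 69.4%, beside 11 of 12 members. The absolute log2 ratio of every member lay below the smallest that was called in its own class of level. Smaller ratios were not called in these classes, which is not the same as no difference. The smallest called ratio is not a limit of detection, since that depends on the unknown spread of each gene among samples.

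**Figure D2:**
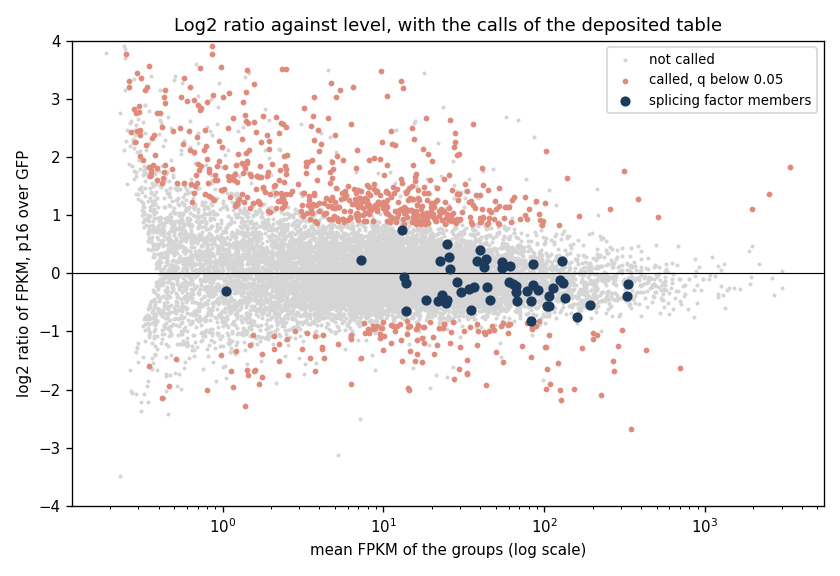
Log2 ratio of FPKM, p16 over GFP, against the mean FPKM of the groups on a log axis, for all tested genes with both values above 0 and a log2 ratio within 4 of 0. Genes called at q below 0.05 are in red and the 52 members in dark blue, and the members sit inside the band without calls.

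The 4 members with the lowest q-values are given first. Sf3b6, at chromosome 12, 4824414 to 4834465 in the mm9 build, encodes the small SF3B subunit that contacts the branch point adenosine. It stood at 60.1 FPKM in the p16 group and 105.7 FPKM in the GFP group, a log2 ratio of -0.81 (q = 0.0549 in the authors' deposited table). Srsf7, at chromosome 17, 80599420 to 80606645, encodes an SR protein that also links splicing to export of the message. It stood at 118.7 FPKM in the p16 group and 199.9 FPKM in the GFP group, a log2 ratio of -0.75 (q = 0.112 in the authors' deposited table). Sf3a2, at chromosome 10, 80261480 to 80267667, encodes the middle subunit of the SF3A complex and went the other way. It stood at 16.3 FPKM in the p16 group and 9.77 FPKM in the GFP group, a log2 ratio of 0.74 (q = 0.139 in the authors' deposited table). Hnrnpr, at chromosome 4, 135866857 to 135901894, encodes a relative of the RNA-binding protein Syncrip. It stood at 10.8 FPKM in the p16 group and 16.9 FPKM in the GFP group, a log2 ratio of -0.65 (q = 0.157 in the authors' deposited table). At a q below 0.2 these 4 members are the whole set, while 12.5% of all tested genes lie below it in the authors' deposited table.

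The coding sequences of these 4 genes are shown because they differ in the base composition that the direction of the members followed, described further on. Each line gives coding bases 1 to 120, 5′ to 3′, of the longest coding sequence of the gene in GENCODE release M21 (build GRCm38), with capitals where the third position of a codon holds G or C.
Sf3b6: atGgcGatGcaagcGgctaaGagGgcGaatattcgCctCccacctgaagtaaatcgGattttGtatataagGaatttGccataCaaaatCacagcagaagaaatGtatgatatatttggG
Srsf7: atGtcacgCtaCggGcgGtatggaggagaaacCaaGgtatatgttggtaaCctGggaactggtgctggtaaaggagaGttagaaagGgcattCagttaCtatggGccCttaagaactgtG
Hnrnpr: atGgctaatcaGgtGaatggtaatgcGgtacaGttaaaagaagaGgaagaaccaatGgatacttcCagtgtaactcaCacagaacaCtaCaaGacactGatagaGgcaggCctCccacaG
Sf3a2: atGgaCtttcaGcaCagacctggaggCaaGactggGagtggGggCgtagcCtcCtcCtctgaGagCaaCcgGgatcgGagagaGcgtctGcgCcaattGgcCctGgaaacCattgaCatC
In these stretches the third position holds G or C in 26 of 40 codons of Sf3a2, the member with the higher value in the p16 group, against 17 in Sf3b6, 16 in Srsf7 and 17 in Hnrnpr. Over the whole coding sequence the share of G or C at the third position is 57.1% in Sf3a2, 48% in Sf3b6, 42.4% in Hnrnpr and 32.4% in Srsf7.

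The SR protein genes summed to 848.6 FPKM in the p16 group and 1014 FPKM in the GFP group, with a median log2 ratio of -0.18. Of the 11 Srsf genes 7 had the lower value in the p16 group, and 0 were called in the authors' deposited table, with 2 lower and 0 higher at an unadjusted p below 0.05. Srsf5, an SR gene first described as insulin-induced in rat liver cells, was the most abundant member of all, at 312.3 FPKM in the p16 group and 354.8 FPKM in the GFP group (log2 ratio of -0.18, q = 0.813 in the authors' deposited table). Srsf3, which encodes the smallest SR protein and with Srsf7 recruits the export receptor, stood at 86.8 FPKM in the p16 group and 127.7 FPKM in the GFP group. Its log2 ratio was -0.56 (q = 0.252 in the authors' deposited table). The pair Srsf3 and Srsf7 thus had the lowest ratios of the family. Srsf6 followed at 69.7 FPKM in the p16 group and 86.0 FPKM in the GFP group. Srsf10, which encodes a splicing repressor when dephosphorylated, was at 30.9 FPKM in the p16 group and 37.3 FPKM in the GFP group. The founding SR gene Srsf1 stood at 27.1 FPKM in the p16 group and 30.0 FPKM in the GFP group. The 4 Srsf genes with the higher value in the p16 group had log2 ratios of at most 0.24. Srsf2, which also acts in transcription elongation, had 89.4 FPKM in the p16 group and 80.4 FPKM in the GFP group. Srsf9 had 57.9 FPKM in the p16 group and 50.7 FPKM in the GFP group. Srsf11, with the largest positive log2 ratio of the family at 0.24, had 47.0 FPKM in the p16 group and 39.7 FPKM in the GFP group (q = 0.724 in the authors' deposited table). Srsf4 was low in both groups, at 7.86 FPKM in the p16 group and 6.72 FPKM in the GFP group. Srsf12, an SR-related repressor, was the least abundant of the 52 members, at 0.936 FPKM in the p16 group and 1.15 FPKM in the GFP group.

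The Hnrnp genes summed to 1580 FPKM in the p16 group and 1923 FPKM in the GFP group, with a median log2 ratio of -0.30. The lower value was in the p16 group for 17 of 20, and 0 were called in the authors' deposited table, with 3 lower and 0 higher at an unadjusted p below 0.05. Hnrnpk, which encodes a binder of poly(C) tracts, was the most abundant, at 284.0 FPKM in the p16 group and 370.2 FPKM in the GFP group. Its log2 ratio was -0.38 (q = 0.524 in the authors' deposited table). Hnrnpa2b1, which encodes an antagonist of SR proteins at splice sites, stood at 157.3 FPKM in the p16 group and 229.6 FPKM in the GFP group. Its log2 ratio was -0.55 (q = 0.286 in the authors' deposited table). Hnrnpc, whose protein binds uridine tracts, had a similar log2 ratio of -0.57, with 83.4 FPKM in the p16 group and 124.0 FPKM in the GFP group (q = 0.234 in the authors' deposited table). Hnrnpr, Hnrnpc and Hnrnpa2b1 are the 3 genes of the family with an unadjusted p below 0.05. Proteins that bind guanine runs are encoded by 4 of the genes, all with the lower value in the p16 group. Hnrnpf stood at 115.6 FPKM in the p16 group and 155.1 FPKM in the GFP group (log2 ratio of -0.42, q = 0.449 in the authors' deposited table). Hnrnph2 stood at 38.8 FPKM in the p16 group and 53.3 FPKM in the GFP group. Hnrnph1 differed less, with 123.3 FPKM in the p16 group and 138.7 FPKM in the GFP group. Hnrnph3 was at 20.3 FPKM in the p16 group and 26.2 FPKM in the GFP group.

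The remaining Hnrnp genes include regulators of message stability and of chromatin. Hnrnpd, whose protein binds AU-rich elements and promotes decay, stood at 15.7 FPKM in the p16 group and 21.4 FPKM in the GFP group. Its relatives Hnrnpdl and Hnrnpab had 79.4 and 82.1 FPKM in the p16 group and 91.7 and 99.9 FPKM in the GFP group. Hnrnpll, known for the splicing of the CD45 transcript in lymphocytes, was at 21.1 FPKM in the p16 group and 28.8 FPKM in the GFP group. Hnrnpu, a chromatin-associated scaffold protein, was nearly level, at 120.5 FPKM in the p16 group and 130.0 FPKM in the GFP group. Hnrnpm had 56.8 FPKM in the p16 group and 63.3 FPKM in the GFP group, and Hnrnpul2 had 33.5 FPKM in the p16 group and 39.7 FPKM in the GFP group. The 3 Hnrnp genes with the higher value in the p16 group were Hnrnpl, Hnrnpul1 and Hnrnpa0. Hnrnpl, a binder of CA repeats, stood at 137.5 FPKM in the p16 group and 118.8 FPKM in the GFP group (log2 ratio of 0.21, q = 0.771 in the authors' deposited table). Hnrnpul1 had 43.5 FPKM in the p16 group and 40.6 FPKM in the GFP group, and Hnrnpa0 had 56.7 FPKM in the p16 group and 53.1 FPKM in the GFP group. Hnrnpa1, the classical antagonist of Srsf1, had 40.3 FPKM in the p16 group and 47.5 FPKM in the GFP group, and Hnrnpa3 had 59.6 FPKM in the p16 group and 74.1 FPKM in the GFP group. The levels of Hnrnpa1 and Hnrnpa3 are uncertain, since each shares its locus in the table with a predicted gene. Gm10052, at the locus of Hnrnpa1, stood at 33.2 FPKM in the p16 group and 40.9 FPKM in the GFP group. Gm6793, at the locus of Hnrnpa3, stood at 271.4 FPKM in the p16 group and 397.6 FPKM in the GFP group, several-fold above Hnrnpa3 itself.

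**Figure D3:**
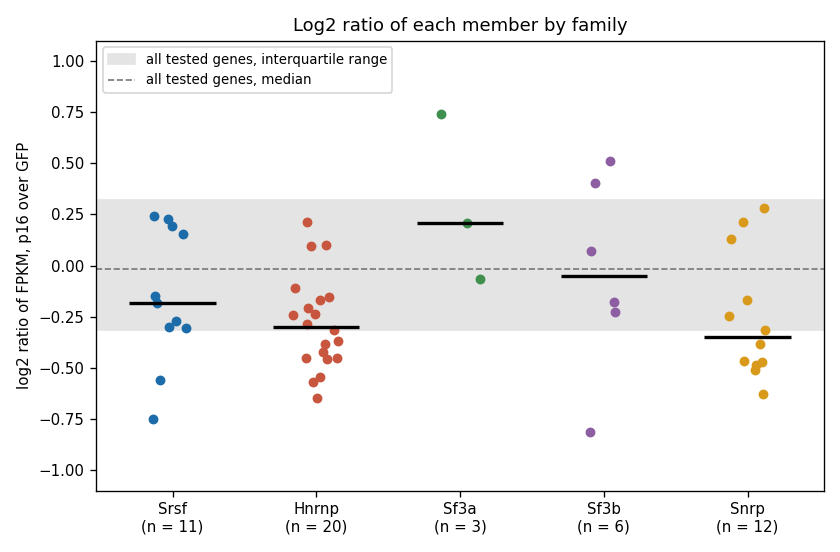
Log2 ratio of FPKM, p16 over GFP, of each member by family, with a bar at the family median, and the median and interquartile range of all tested genes as a dashed line and a grey band. The Hnrnp and Snrp medians of -0.30 and -0.35 lie below the median of all tested genes, and the Sf3a median of 0.21 lies above it.

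The Snrp genes summed to 562.4 FPKM in the p16 group and 682.2 FPKM in the GFP group, with a median log2 ratio of -0.35, the lowest of the 5 families. Of 12 genes 9 had the lower value in the p16 group, and 0 were called in the authors' deposited table, with 1 lower and 0 higher at an unadjusted p below 0.05. The Sm ring, which encircles the snRNA in most spliceosomal snRNPs, is encoded by 7 of them, and 6 of the 7 had the lower value in the p16 group. These 7 genes summed to 432.9 FPKM in the p16 group and 546.6 FPKM in the GFP group, with a median log2 ratio of -0.47, or -0.14 once the trend in GC content and transcript length described further on was removed. With that trend removed the median over all tested genes was -0.10. Snrpd1 stood at 27.6 FPKM in the p16 group and 42.7 FPKM in the GFP group, a log2 ratio of -0.63 (q = 0.233 in the authors' deposited table). Snrpe stood at 68.9 FPKM in the p16 group and 96.3 FPKM in the GFP group (log2 ratio of -0.48, q = 0.398 in the authors' deposited table). Snrpd3 had 57.0 FPKM in the p16 group and 79.0 FPKM in the GFP group, and Snrpf had 18.4 FPKM in the p16 group and 25.4 FPKM in the GFP group. These ratios lay close together, and none was called. Snrpd2 and Snrpg were the most abundant Sm genes. Snrpd2 stood at 104.4 FPKM in the p16 group and 123.9 FPKM in the GFP group (log2 ratio of -0.25, q = 0.732 in the authors' deposited table). Snrpg stood at 92.6 FPKM in the p16 group and 120.7 FPKM in the GFP group (log2 ratio of -0.38, q = 0.546 in the authors' deposited table). Snrpb, which encodes SmB, had the higher value in the p16 group, at 64.1 FPKM in the p16 group and 58.6 FPKM in the GFP group. Its log2 ratio of 0.13 became -0.14 with that trend removed. Although the Sm proteins enter the ring in equal number, their transcripts differed several-fold in level per length in both groups, with Snrpf lowest and Snrpd2 highest.

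Of the Snrp genes for proteins of the U1 and U2 particles outside the Sm ring, none was called. The U1 genes Snrpa and Snrpc stood at 28.2 and 41.1 FPKM in the p16 group and 23.2 and 35.4 FPKM in the GFP group (log2 ratios of 0.28 and 0.22, q = 0.764 and 0.788 in the authors' deposited table). The U2 genes Snrpb2 and Snrpa1 stood at 20.2 and 13.1 FPKM in the p16 group and 28.7 and 14.7 FPKM in the GFP group (log2 ratios of -0.51 and -0.17, q = 0.375 and 0.859 in the authors' deposited table). Snrpn, the imprinted gene for the SmN protein of brain, was expressed at 26.9 FPKM in the p16 group and 33.5 FPKM in the GFP group. It shares its locus with Snurf, at 4.59 FPKM in the p16 group and 7.07 FPKM in the GFP group, and how reads were divided between them is unknown.

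SF3A and SF3B members went both ways, and 0 were called in the authors' deposited table. The 3 Sf3a genes summed to 53.5 FPKM in the p16 group and 44.3 FPKM in the GFP group, and the 6 Sf3b genes to 282.5 FPKM in the p16 group and 325.4 FPKM in the GFP group. The SF3A genes Sf3a1 and Sf3a3 stood at 13.1 and 24.1 FPKM in the p16 group and 13.7 and 20.9 FPKM in the GFP group (log2 ratios of -0.07 and 0.21, q = 0.951 and 0.783 in the authors' deposited table), beside Sf3a2 above. The 3 Sf3a genes had a median log2 ratio of 0.21, and 1 of them, Sf3a2, had an unadjusted p below 0.05 in the authors' deposited table. Among the 6 Sf3b genes, Sf3b6, Sf3b1 and Sf3b2 had the lower value and Sf3b3, Sf3b4 and Sf3b5 the higher value in the p16 group, with a median log2 ratio of -0.05. Of the Sf3b genes only Sf3b6 had an unadjusted p below 0.05 in the authors' deposited table. Sf3b1, the scaffold that clamps the branch point helix, stood at 61.2 FPKM in the p16 group and 71.6 FPKM in the GFP group (log2 ratio of -0.23, q = 0.748 in the authors' deposited table). Sf3b2 stood at 60.2 FPKM in the p16 group and 68.2 FPKM in the GFP group (log2 ratio of -0.18, q = 0.81 in the authors' deposited table). Sf3b4, which contacts RNA upstream of the branch point, stood at 29.1 FPKM in the p16 group and 20.4 FPKM in the GFP group, a log2 ratio of 0.51 (q = 0.343 in the authors' deposited table). Sf3b5, a small structural subunit, stood at 45.5 FPKM in the p16 group and 34.3 FPKM in the GFP group, and Sf3b3 at 26.5 FPKM in the p16 group and 25.2 FPKM in the GFP group. In the GFP group Sf3b6 was the most abundant gene of the complex by FPKM, and in the p16 group Sf3b6, Sf3b1 and Sf3b2 all stood between 60.1 and 61.2 FPKM.

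The direction of the members followed the base composition of their transcripts. With all tested genes parted by transcript GC content into 5 bins of equal size, 19 members fell in the lowest bin, and all 19 had the lower value in the p16 group. All 6 members of the highest bin, Srsf4, Srsf9, Sf3a2, Sf3b4, Snrpa and Snrpb, had the higher value in the p16 group. In turn 10 of 12, 6 of 10 and 2 of 5 members had the lower value in the 3 bins between them, in order of rising GC content. The same held over all tested genes, of which 77% had the lower value with p16 in the lowest bin and 19.5% in the highest. The median GC content was 54.2% for the 15 members with the higher value in the p16 group and 44.1% for the 37 with the lower value. Of the 7 members that were lower at an unadjusted p below 0.05, 6 lay in the lowest bin, where 18.5% of all tested genes were so in the authors' deposited table. The other, Sf3b6, lay in the next bin, where 10.1% were. The single member higher at that level, Sf3a2, lay in the highest bin, where 20.6% of tested genes were higher. Across the 52 members the log2 ratio correlated with transcript GC content at a Spearman rho of 0.69, and across 13045 tested genes with both values above 0 at 0.46. These genes share the same libraries and are not independent replicates, so the correlations are descriptions without a test. Positions at the end of each codon, which mostly do not alter the protein, showed the same order, as in the coding stretches of Sf3a2, Sf3b6, Srsf7 and Hnrnpr above. The median share of G or C there was 62.9% for the members with the higher value in the p16 group and 48% for those with the lower value. Transcript length showed no such order among members (Spearman rho of 0.01).

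**Figure D4:**
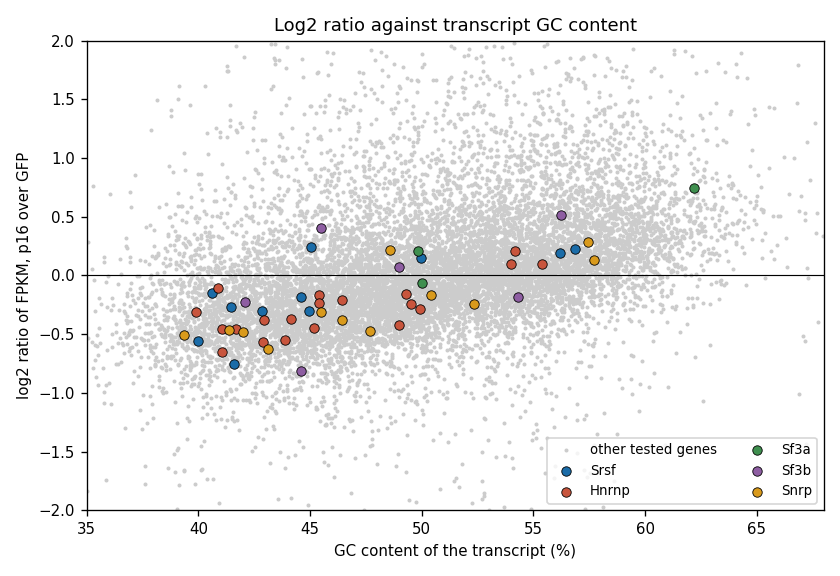
Log2 ratio of FPKM, p16 over GFP, against the GC content of the longest protein-coding transcript, for members coloured by family over other tested genes in grey, of which those beyond the axes are not drawn. All 19 members in the lowest of 5 GC bins lie below 0 and all 6 in the highest lie above it, within the slope of the grey points.

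After removal of a spline trend with transcript GC content and length, 0 members reached the size of quantile that marks a call. That size, 3.0, was taken from the quantiles before removal. Of the 13133 tested genes with a known GC content, 366 reached it in the higher and 97 in the lower direction. The median log2 ratio of the members was then -0.09, against -0.10 over all tested genes. The family medians after removal were -0.02 for Srsf, -0.18 for Hnrnp, -0.10 for Snrp, -0.04 for Sf3b and 0.26 for Sf3a. All 7 Sm genes then had ratios below 0, as did 7914 of the 13045 tested genes with both values above 0. With the trend removed 10 of the 52 members changed sign. Srsf1, Srsf5, Hnrnpa1, Hnrnph1 and Hnrnpu, of the 37 with the lower value in the p16 group, then had ratios above 0, and Srsf5 was highest of these at 0.12. Srsf4, Srsf9, Hnrnpa0, Hnrnpul1 and Snrpb, of the 15 with the higher value, then had ratios below 0, with Hnrnpa0 lowest at -0.17. Among these, Srsf4 and Srsf9, at -0.07 and -0.02, stayed above the corrected median of all tested genes, and the others lay below it. The source of the trend with GC content was not tested.

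Of the proximal promoters, 46 member genes had a match in the RefSeq table, with 63 start sites in all. No entry was matched for Hnrnpll, Hnrnpul2, Sf3b4, Sf3b5, Snrpb and Snrpd1. Windows of 250 bases before to 50 after the start had a median of 25 CpG sites and a GC content of 61%, against 7 CpG sites and 52.7% over 32851 promoters of all genes. E2F factors, which the retinoblastoma protein holds in check when p16INK4a blocks the cyclin D kinases, bind motifs of the kind searched here: TTTCGCGC, TTTGGCGC and TTTCCCGC on either strand. Such letters were found in promoters of 5 member genes, or 7.94% of the member promoters, against 1.84% of all promoters. They are shown because this is the promoter element closest to the induced protein. Each line gives 20 bases on each side of the match, in build GRCm38.p6 from RefSeq, read along the gene, with the match in capitals, and for Srsf10 the match nearest to its start site is shown of 3.
Srsf1, chr11:88047286-88047333, plus strand: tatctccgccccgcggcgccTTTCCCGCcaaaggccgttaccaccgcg
Srsf10, chr4:135855989-135856036, plus strand: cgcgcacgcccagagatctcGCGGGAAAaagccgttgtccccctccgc
Hnrnpr, chr4:136311361-136311408, plus strand: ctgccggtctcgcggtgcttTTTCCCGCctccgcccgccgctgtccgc
Hnrnpul1, chr7:25754944-25754991, minus strand: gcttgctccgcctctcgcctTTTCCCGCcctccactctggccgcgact
Snrpa, chr7:27195809-27195856, minus strand: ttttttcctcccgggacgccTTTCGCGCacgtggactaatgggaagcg
The 5 genes did not share a sign. Srsf1, Srsf10 and Hnrnpr had the lower value in the p16 group and Hnrnpul1 and Snrpa the higher value, at log2 ratios of -0.15, -0.27, -0.65, 0.10 and 0.28, and none was called in the authors' deposited table. The ETS motif CCGGAAGT was found on either strand in 17.5% of the member promoters and 3.89% of all promoters, and the letters CCAAT in 44.4% and 37.4%. The TATA box letters TATAAA were found in 11.1% of the member promoters and 13.6% of all promoters, and the motif of the factor NRF1 in 1.59% and 0.971%. The promoters of all genes were not matched to those of the members in GC content, CpG sites or expression. The shares are therefore no test of whether a motif is particular to splicing genes. A match is a description of letters and not a site of binding.

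The rest of the splicing machinery gave few calls as well. Of 7 lists of other splicing genes, 6 had no gene called in the authors' deposited table, and the list of the exon junction complex and nonsense-mediated decay had 1 higher and 0 lower of 15, against 4.32% higher and 1.1% lower over all tested genes. The gene was Upf1, the helicase at the centre of nonsense-mediated decay, which rose to 20.7 FPKM in the p16 group, against 11.0 FPKM in the GFP group (log2 ratio of 0.91, q = 0.0174 in the authors' deposited table). Its transcript has a GC content of 57.9%, and with the GC and length trend removed its quantile of 2.19 no longer reached the 3.0 that marks a call. Magoh and Eif4a3, core genes of the exon junction complex, stood at 79.7 and 62.4 FPKM in the p16 group and 115.3 and 65.6 FPKM in the GFP group (q = 0.303 and 0.942 in the authors' deposited table). LSm proteins and snRNP assembly factors had the lowest median log2 ratio of the lists, -0.29, with the lower value in the p16 group for 18 of 25. In this list 4 were lower and 0 higher at an unadjusted p below 0.05, against 7.01% lower and 10.2% higher over all tested genes in the authors' deposited table, which is the background for the same counts in the other lists. Strap, a subunit of the assembly complex, stood at 66.8 FPKM in the p16 group and 96.7 FPKM in the GFP group (q = 0.273 in the authors' deposited table). Lsm4 stood at 38.4 FPKM in the p16 group and 37.3 FPKM in the GFP group (q = 0.97 in the authors' deposited table).

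In the list of the same families under other symbols, 18 of 22 genes were found and tested, with a median log2 ratio of -0.12. Of these, 2 were higher and 1 was lower at an unadjusted p below 0.05 in the authors' deposited table. Pcbp1, which encodes a binder of poly(C) tracts, stood at 193.8 FPKM in the p16 group and 158.0 FPKM in the GFP group (q = 0.633 in the authors' deposited table). Snrnp70, the U1 protein that binds the snRNA, was named after its values were seen. It stood at 75.6 FPKM in the p16 group and 44.0 FPKM in the GFP group (q = 0.0576 in the authors' deposited table). Other U snRNP proteins had a median log2 ratio of -0.02 over 31 genes, with 1 higher and 1 lower at an unadjusted p below 0.05. Among them were U2af1 and U2af2, the subunits that read the 3′ splice site, at 72.8 and 69.1 FPKM in the p16 group and 73.8 and 64.8 FPKM in the GFP group (q = 0.984 and 0.923 in the authors' deposited table). Factors of the catalytic steps had a median log2 ratio of -0.14 over 21 genes, with 0 higher and 1 lower at an unadjusted p below 0.05. Of these Cwc15 and Bud31 stood at 60.1 and 62.7 FPKM in the p16 group and 78.3 and 69.2 FPKM in the GFP group (q = 0.499 and 0.908 in the authors' deposited table). SR kinases, importers and SR-related proteins had a median log2 ratio of 0.08 over 24 tested genes, with 2 higher and 1 lower at an unadjusted p below 0.05. In this list Rbm39 stood at 147.6 FPKM in the p16 group and 137.1 FPKM in the GFP group (q = 0.914 in the authors' deposited table). Tra2b, an SR-like activator of exons, stood at 82.2 FPKM in the p16 group and 130.0 FPKM in the GFP group (q = 0.138 in the authors' deposited table). Regulators of tissue-specific and alternative splicing had a median log2 ratio of 0.00 over 32 tested genes, with 2 higher and 2 lower at an unadjusted p below 0.05. Their most abundant genes, Celf3 and Ewsr1, stood at 96.0 and 87.5 FPKM in the p16 group and 76.7 and 84.0 FPKM in the GFP group (q = 0.609 and 0.957 in the authors' deposited table).

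**Figure D5:**
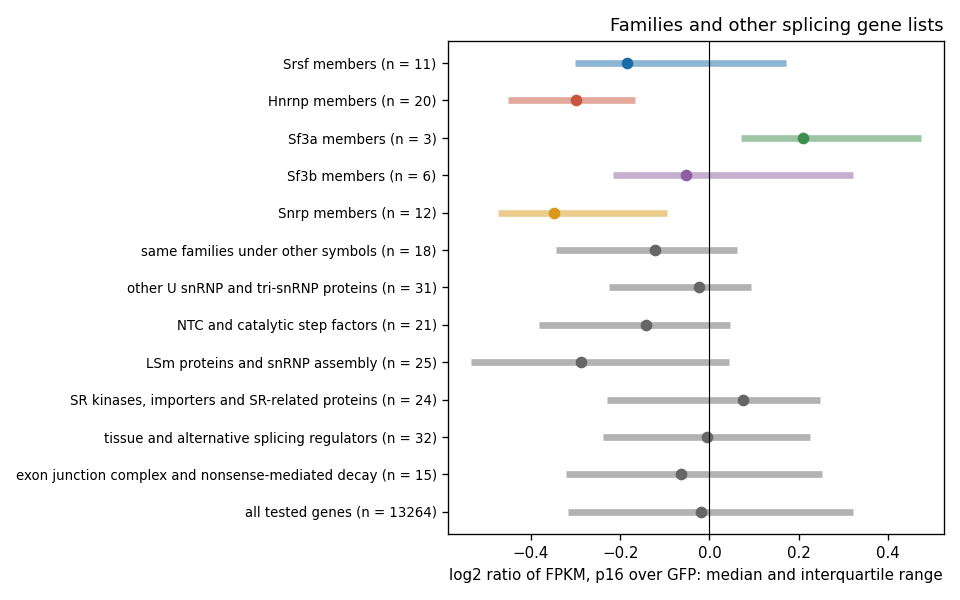
Median (point) and interquartile range (bar) of the log2 ratio of FPKM, p16 over GFP, for the 5 families, 7 lists of other splicing and RNA decay genes and all tested genes, with the number of tested genes in brackets. The medians run from -0.35 for the Snrp genes to 0.21 for the Sf3a genes.

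The loci of 11 members overlap another gene in the table, which leaves the split of reads between them uncertain. Besides Hnrnpa1, Hnrnpa3 and Snrpn they are Hnrnpk, Hnrnpab, Hnrnph3, Srsf4, Sf3a3, Sf3b3, Snrpa and Snrpf. Hnrnpk carries the microRNA gene Mir7-1 in its locus, listed at 26.8 FPKM in the p16 group and 4.44 FPKM in the GFP group (q = 0.737 in the authors' deposited table), and this library type does not measure the mature microRNA. Many members also have processed pseudogenes elsewhere in the genome, and how reads that match several places were counted is not given in the sources used here.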

How the data were processed

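RNA was sequenced from sorted beta cells of 3 p16 and 2 GFP samples. The submitters' processing notes name TopHat2, Cuffnorm, Cuffdiff and mm9, and the sources used here give no versions, annotation, scaling or strand setting. The table deposited by the authors holds 1 FPKM value per group and gene, and a p-value and q-value per gene. FPKM is not a count, so no count model was run, and library depth is unknown.

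No model per sample could be fitted, so the authors' calls at q below 0.05 were used. Log2 ratios were taken on FPKM with no pseudocount. Table starts count from 0, and 1 was added. Transcript GC content and length are those of the longest protein-coding transcript in GENCODE M21 (99.0% of tested genes matched) and natural splines with 4 degrees of freedom each were regressed out of the log2 ratios and of the signed normal quantiles of the authors' p-values, explaining 23.7% of the variance of these quantiles. Tested on simulated quantiles for 13264 genes with a GC trend, that step recovered 187 of 200 changed genes and called 9 of 13064 unchanged ones. In this simulation the trend was a straight line, the planted shifts exceeded the quantile of every member, and calls rested on adjusted p-values. It therefore does not show how well changes of the size seen in members would be recovered. Scripts ran in Python 3.11.15 with pandas 2.3.3, numpy 2.4.6, scipy 1.17.1 and, for plots, matplotlib 3.10.9.

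Members and lists were chosen with earlier results of these data known. All members are named. Those given with q are the ones with q below 0.2, and in each family the 3 most abundant and the largest ratio in each direction, and some others beside them. From each list, called genes and the 2 most abundant are named. A few single-gene values are not reported here. The alternatives tried were pseudocounts, filters, scaling, thresholds and the GC and length trend.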

Additional observations from a re-analysis of the deposited data

How the results depend on the processing

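The count of 0 called members held under pseudocounts of 1 and 5, filters at a mean of 1, 5 or 20 FPKM with the p-values adjusted again, median centring, quantile normalization, a q below 0.01, removal of the GC and length trend and removal of the 11 members with a shared locus. Pseudocounts and scaling leave the authors' q-values as they are, so they bear on the ratios only. A stricter q and the removal of members could not raise a count of 0, so they do not test it. At a q below 0.1 the count was 1, Sf3b6. The removal of the GC and length trend moved the median log2 ratio by over 0.1 for all members (-0.093), Srsf (-0.017), Hnrnp (-0.18) and Snrp (-0.10), and turned the sign of 10 of the 52 members, Srsf5 (0.12) among them. Without members of a shared locus the median was 0.34 for Sf3a, over 2 genes, and -0.18 for Sf3b, over 5 genes. For the 21 members named by the rule on abundance, ratio and q, the other 146 values kept their sign and their side of the threshold. Most of these values could not change sign. A pseudocount cannot turn a ratio, and a filter leaves it as it is. Median centring shifted each ratio by the median of all tested genes, -0.02, which is smaller in size than any named ratio. Only quantile normalization and the trend removal therefore tested the sign. The trend removal of medians, the filter at 20 FPKM and the removal of shared loci were chosen after seeing the data. The transcript used for Hnrnpr is 21452 bases long, at the edge of the length trend, so its corrected value is uncertain. Leaving out each replicate in turn was not run, since the table holds group values. No paired analysis was possible because the table holds no values per sample. Unknown depth limits what can be said of Srsf12 and Srsf4, the members of lowest level.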
